A study of Mus musculus with 2 samples.

Results

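The 9 genes described here encode regulators of the naive and resting state of T cells. They were Tcf7, Lef1, Foxo1, Foxo3, Foxp1, Klf2, Bach2, Satb1 and S1pr1, chosen by gene name from a deposited table of genes near STAT5 binding regions. All 9 were among the 4934 genes of that table. STAT5 binding was measured by chromatin immunoprecipitation and sequencing (ChIP-seq) in mouse effector CD8 T cells of strain C57BL/6 with an antibody against STAT5. The cells were OT-I cells, whose transgenic T cell receptor recognises a peptide of ovalbumin. They had been transferred into host mice and primed there with that peptide together with agonists of CD134 and CD137, which are costimulatory receptors. The extraction notes name STAT5A as the target, the antibody label names STAT5, and whether animals were pooled is not stated. Both groups shared this priming, and both were sorted from spleens after 4 days. The control group was 1 library, from cells that received no cytokine, and the other group was 1 library, from cells held in culture with IL-2 at 0.5 µg/ml for 1 hour. With no replicates there is no test of IL-2 against control, and every value below describes these 2 libraries.

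Naive T cells are held at rest by a network of transcription factors. FOXO1 drives genes of survival and homing, among them Il7r and Klf2. KLF2 in turn drives S1pr1, whose product is the receptor by which T cells leave lymphoid organs. TCF-1 (the product of Tcf7) and LEF-1 act together in naive and memory cells, FOXP1 maintains quiescence, BACH2 restrains effector differentiation, and SATB1 organises chromatin. IL-2 activates STAT5 through the kinases JAK1 and JAK3, and activated STAT5 binds DNA as a dimer. The paired letters TTC and GAA, with 3 bases between them, are its usual motif.

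The 250 bases upstream of 5 gene starts are shown because the results below turn on them, 4 with a STAT5 region close by and 1 without a listed one. The starts of Klf2 and Foxo1 each had a region within 1 kb. The starts inside Foxp1 and Lef1 lay beside regions that the deposited table places deep in the gene. The deposited start of Bach2 held the motif, and the nearest region listed for it lay further off. RefSeq's span of Bach2 begins 179 kb further upstream, so this start is internal to that span. Some numbered intervals whose positions are not in the rows used here fall in the stretch that holds this start. The sequences are RefSeq's (GRCm38.p6, the mm10 build), read 5′ to 3′ on the strand of the gene, and capitals mark the motif TTCNNNGAA where it occurred.
Klf2, chr8:72318812-72319061, plus strand: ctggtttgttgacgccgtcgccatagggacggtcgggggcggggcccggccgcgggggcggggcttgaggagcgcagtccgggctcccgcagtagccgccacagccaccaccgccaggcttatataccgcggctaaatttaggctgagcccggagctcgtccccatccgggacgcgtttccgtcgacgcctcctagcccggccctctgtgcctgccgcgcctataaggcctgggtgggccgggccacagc
Foxo1, chr3:52268087-52268336, plus strand: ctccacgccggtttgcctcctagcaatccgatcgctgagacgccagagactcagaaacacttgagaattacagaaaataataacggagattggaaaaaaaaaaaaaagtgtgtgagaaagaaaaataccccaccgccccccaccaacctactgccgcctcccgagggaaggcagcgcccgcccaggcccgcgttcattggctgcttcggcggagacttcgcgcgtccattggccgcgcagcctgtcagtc
Foxp1, internal start, chr6:99028299-99028548, minus strand: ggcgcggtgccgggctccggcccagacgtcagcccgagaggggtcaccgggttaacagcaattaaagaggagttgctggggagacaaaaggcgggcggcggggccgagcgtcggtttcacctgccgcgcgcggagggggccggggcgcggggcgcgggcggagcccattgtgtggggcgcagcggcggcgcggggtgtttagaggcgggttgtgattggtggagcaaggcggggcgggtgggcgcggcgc
Lef1, internal start, chr3:131156044-131156293, plus strand: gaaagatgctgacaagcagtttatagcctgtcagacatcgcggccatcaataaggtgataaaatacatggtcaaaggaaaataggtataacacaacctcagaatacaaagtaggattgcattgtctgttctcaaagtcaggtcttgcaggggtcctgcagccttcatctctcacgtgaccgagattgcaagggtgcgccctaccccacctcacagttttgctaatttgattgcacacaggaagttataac
Bach2, chr4:32417185-32417434, plus strand: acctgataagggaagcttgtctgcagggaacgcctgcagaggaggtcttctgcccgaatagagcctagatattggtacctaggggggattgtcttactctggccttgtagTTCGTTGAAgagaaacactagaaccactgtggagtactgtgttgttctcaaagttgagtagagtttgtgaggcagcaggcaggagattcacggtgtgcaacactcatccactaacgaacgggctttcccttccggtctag
The deposited position of the nearest region was 394 bp after the Klf2 start, 420 bp after the Foxo1 start, 502 bp before the internal Foxp1 start, 442 bp after the internal Lef1 start and 7397 bp after the Bach2 start. None of these positions fell inside the windows, and the regions' width was not given in the sources used here. Over 300 bases (250 before the start and 50 from it on), the letters TTCNNNGAA, which read the same on both strands, occurred in 1 of 18 windows of 8 of the 9 genes, that of Bach2. They occurred in 8.3% of all 32851 RefSeq windows. With 4 bases in place of 3 between TTC and GAA, the letters occurred in 1 of the 18 windows, that of a Lef1 start 27289 bp from the nearest region, and in 6.95% of all windows. The 2 motifs did not overlap, since they lay in different windows. Over all windows the median share of G and C was 52.7% (interquartile range 45.7 to 61.7%). The windows of Klf2 (69.3%) and the internal Foxp1 start (75.3%) lay above that range. Those of Foxo1 (61.3%, near its upper end) and Bach2 (50.3%) lay inside it, and that of the internal Lef1 start (43.7%) lay below it.

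Heights are peak heights in signal units, and a gene's height in a library is the mean over its regions. All 9 genes had at least 1 region called in the IL-2 library, as did all 4934 listed genes, since a region is what put a gene in the table. Of 21896 protein-coding genes in RefSeq, 19.1% were listed. The log2 ratio of a gene was taken as log2 of its IL-2 height plus 5 over its control height plus 5. It was at least 1, a ratio of 2, for 7 of the 9 genes, against 83.8% of all listed genes, and at least 2, a ratio of 4, for 2 of 9, against 23.1%. The median log2 ratio was 1.35 over the 9 genes and 1.42 over all listed genes. The share and the median thus lay near those of the table as a whole. After scaling that gave the control and IL-2 libraries equal medians, which moved the median log2 ratio of all listed genes by -1.28, 5 of the 9 genes were higher with IL-2 and 4 (S1pr1, Bach2, Klf2 and Tcf7) were higher in control. Over all listed genes 58.7% were then higher with IL-2. As a check of the labelled cells, 6 of 7 T cell marker genes had a region, against 1 of 6 B cell, 1 of 6 myeloid, 2 of 3 natural killer and 0 of 3 erythroid markers. This shows binding near those genes and not their expression.

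**Figure D1:**
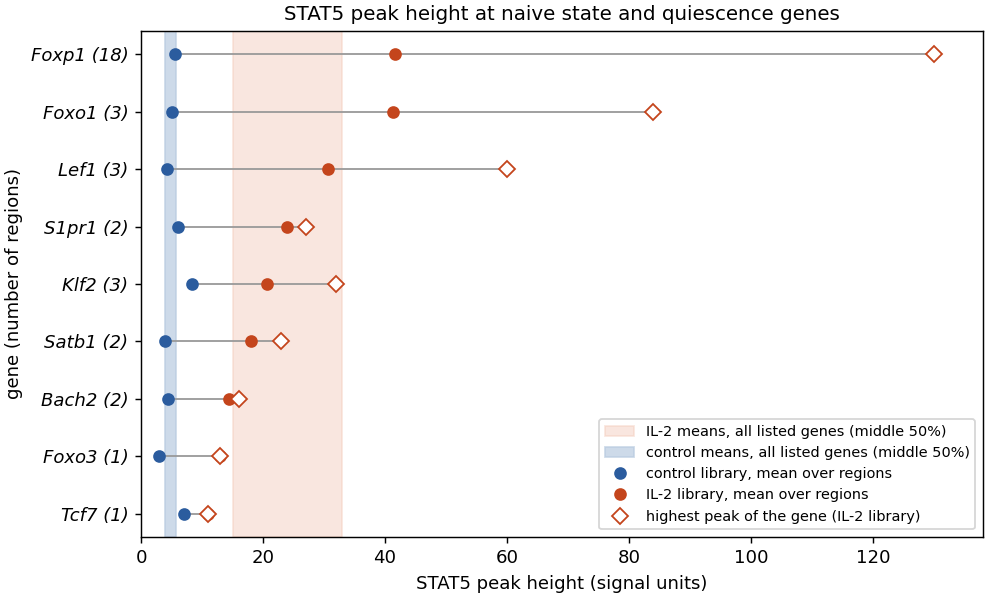
Peak height in signal units (x axis) for each gene (y axis, with its number of regions in brackets). Filled points are means over the gene's regions in the control and IL-2 libraries, open diamonds the highest peak, and bands the middle 50% of the means of all listed genes. Foxp1 and Foxo1 had IL-2 means of 41.61 and 41.33, and Tcf7 and Foxo3, where the diamond covers the mean, had 11 and 13.

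Foxp1 had the most regions and the highest peak of the 9 genes. The gene spans chr6:98925342-99435345 on the minus strand in the deposited table, a length of 510 kb. It had 18 regions, and 3 of the 4934 listed genes had more. Its mean height was 5.5 in control and 41.61 with IL-2 (a log2 ratio of 2.15), and its highest peak was 130, above 98.2% of listed genes. The control mean was above 70.7% of listed genes and the IL-2 mean above 83.7%. Foxp1 therefore stood further out by its number of regions and its highest peak than by its mean. The highest peak is not independent of the number of regions. Its median was 18 over genes with 1 region and 64 over genes with 4 or more.

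All 18 regions of Foxp1 lay within the gene, from 81 bp to 407 kb after its deposited start. There were 9 in the first 100 kb, at distances of 81, 2353, 6641, 17105, 37441, 46449, 56017, 60273 and 98769 bp. A further 5 lay between 133281 and 177521 bp, and 3 of these, at 172241, 173889 and 177521 bp, were close together. No region lay in the 162 kb from 178 to 340 kb, and the last 4 lay at 339505, 378225, 384641 and 406545 bp. The heights of single regions are known only in part. The region at 339505 bp, which was also assigned to the neighbouring gene Gm19665, had 6 in control and 15 with IL-2. Without this region and the highest peak, the other 16 regions had a mean IL-2 height of 37.8, above the median of 20.75 for all listed genes. Listed genes with 4 or more regions had a median IL-2 mean of 29.6 (interquartile range 22.33 to 39.69), and 37.8 lay within that range. The farthest region, at chr6 position 99028800, lay 502 bp before the internal RefSeq start shown above.

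Long genes have more room for regions, so the count was set beside genes of like length. Of the 144 listed genes, Foxp1 included, between 0.5 and 2 times its length in the deposited table, the median had 2 regions and 97.9% had fewer than 18. By the gene lengths of RefSeq, which can differ from the deposited ones, 646 protein-coding genes lay in that range and 25.4% of them were listed. Per 100 kb of the gene with flanks of 10 kb on each side, Foxp1 had 3.4 regions. By this measure the short genes Klf2 (13.3) and S1pr1 (8.12) were denser, and Foxo1 (2.95), Lef1 (2.26), Tcf7 (2), Satb1 (1.71), Bach2 (1.06) and Foxo3 (0.901) were sparser. The only other listed gene with 18 regions was Akap13, which encodes an anchoring protein of protein kinase A and is 299 kb long. It had heights of 4.67 and 32.28 and a highest peak of 113, a Euclidean distance of 0.48 from Foxp1 over the log2 control mean, IL-2 mean and highest peak of the 2 libraries.

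**Figure D2:**
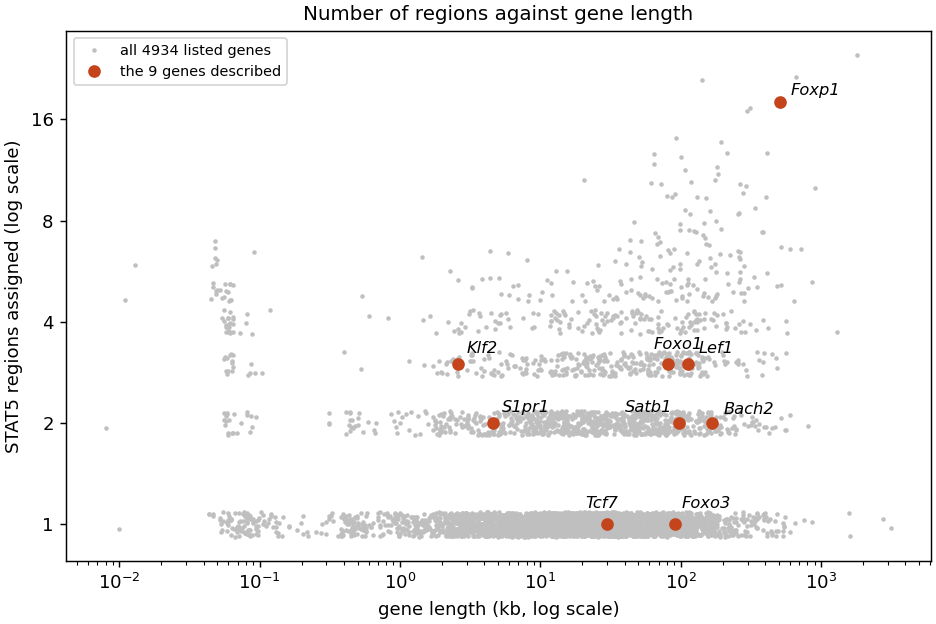
Number of STAT5 regions (y axis, log scale) against gene length in kb (x axis, log scale) for all listed genes (grey, jittered vertically) and the 9 genes (red). Foxp1, with 18 regions over 510 kb, stands apart, and Tcf7 and Foxo3 have 1 region each.

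The forkhead factors Foxo1 and Foxo3, which are of similar length and belong to 1 family, differed in both libraries. Foxo1 (chr3:52268337-52350109, plus strand, 81.8 kb) had 3 regions, at 420, 2255 and 29103 bp, with a mean of 5 in control and 41.33 with IL-2, a log2 ratio of 2.21. Its highest peak was 84, which leaves a sum of 40 for the other 2 regions. Which of the 3 regions held the peak cannot be told from the table. Foxo3 (chr10:42185786-42276742, minus strand, 91 kb) had 1 region, 7008 bp after its start, with 3 in control and 13 with IL-2, a log2 ratio of 1.17. This position also lies within the RefSeq long non-coding RNA gene Gm38485. The IL-2 height of Foxo1 was above 83.5% of listed genes and that of Foxo3 above 11.3%. Foxo3 also had the lowest control height of the 9 genes, above 4.7% of listed genes, so its ratio was nearer the middle than its IL-2 height was.

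Tcf7 and Lef1 encode factors of the same family and also differed. Lef1 (chr3:131110471-131223334, plus strand, 113 kb) had 3 listed regions, at 29609, 46265 and 98297 bp. Its mean was 4.33 in control and 30.67 with IL-2 (a log2 ratio of 1.93), and its highest peak was 60, with a sum of 32 over the other 2. The region at 46265 bp lay 442 bp after an internal RefSeq start, shown above. Regions placed over 1 kb into a gene but within 1 kb of another RefSeq start of that gene were 2 of 27 for the 8 genes with a RefSeq promoter entry, those of Lef1 and Foxp1, and 4.18% over all listed genes with such an entry.

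Tcf7 (chr11:52252604-52282571, minus strand, 30 kb) had the lowest ratio of the 9 genes. Its only listed region, at chr11 position 52279854, lay 2717 bp after its start and also within A630014C17Rik, which overlaps the start of Tcf7 on the opposite strand. The control height was 7 and the IL-2 height 11, a log2 ratio of 0.42, and 13 of all 4934 listed genes had a lower ratio. The first of these lay above 90.4% of listed genes and the second above 2.09%. Both ends of the ratio thus lay towards a small difference, of 4 signal units. Among the 3292 genes with 1 region the median IL-2 height was 18, and 8.44% of them were at 11 or below. Exactly the same heights as at Tcf7 were found at Chd4, Eif3a, Kcnh2, Nop2 and Syf2 and, since it shares the region, at A630014C17Rik, a tie of 6 genes out of 3289 other genes with 1 region and a control height above 0.

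Klf2 (chr8:72319062-72321654, plus strand, 2.59 kb) had a low ratio of another kind. Its mean height was 8.33 in control and 20.67 with IL-2 (a log2 ratio of 0.95). The IL-2 mean was close to the median of all listed genes, above 49.8% of them, while the control mean was above 98.5%. Klf2 was also the only 1 of the 9 genes with an interval called in the control library, against 0.243% of listed genes. That interval lay 170 bp after the start, 224 bp from the IL-2 interval at 394 bp, and the table counts them as 1 region. The other regions lay beyond the gene's end, 3642 and 10810 bp from its start, and the latter was also assigned to Eps15l1. The highest IL-2 peak was 32 and the other 2 regions summed to 30. In control the 3 regions summed to 25, and the table does not determine how much of this fell on the region at the start.

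The difference between Foxp1 and these genes was 1.74 on the log2 ratio scale for Tcf7 and 1.20 for Klf2. With the highest peak in place of the mean as the IL-2 value, which favours genes with several regions, it was 3.27 for Tcf7 and 2.21 for Klf2. Foxp1 and Tcf7 differed in number of regions (18 and 1), in IL-2 mean (41.61 and 11) and in highest peak (130 and 11). Foxp1 and Klf2 differed less in IL-2 mean (41.61 and 20.67) and also in control mean (5.5 and 8.33). There is no error for these differences. Foxp1, Tcf7 and Klf2 were chosen for contrast with their values in these libraries known, so the direction of the differences is not a finding.

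**Figure D3:**
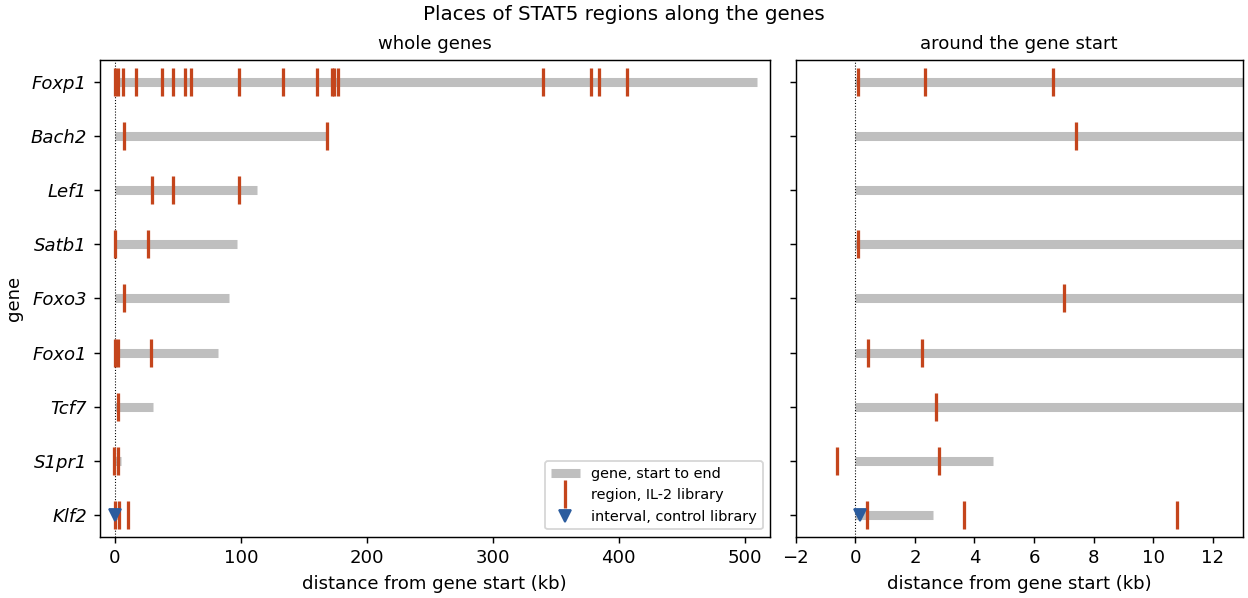
Distance of each STAT5 region from the gene start in kb (x axis), over the whole genes (left) and near the start (right), for the 9 genes (y axis). Grey bars are the genes, red ticks regions of the IL-2 library, and the blue triangle the interval of the control library, seen at Klf2 alone. Regions of Foxp1 run through the gene with a gap of 162 kb, and those of Klf2 extend past its end.

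S1pr1 (chr3:115710433-115715055, minus strand, 4.62 kb) encodes the sphingosine 1-phosphate receptor that KLF2 drives. It had 2 regions, at -625 bp, upstream of its start, and at 2810 bp within the gene. Its mean was 6 in control and 24 with IL-2 (a log2 ratio of 1.40), and the highest peak of 27 leaves 21 for the other region. The 2 regions were thus of similar height. The ratio was above 49.1% of listed genes, although the control height, above 75.2%, was on the high side.

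Satb1 and Bach2 had 2 regions each and IL-2 means below the median of 23 for genes with 2 regions. Satb1 (chr17:51736187-51833290, minus strand, 97.1 kb) had a mean of 4 in control and 18 with IL-2 (a log2 ratio of 1.35). Its region 106 bp after the start was shared with Gm6934, on the opposite strand, and had 2 in control and 13 with IL-2. The region 26538 bp into the gene then had 6 and 23, so the inner region was the higher of the pair. Bach2 (chr4:32417435-32586108, plus strand, 169 kb) had a mean of 4.5 in control and 14.5 with IL-2 (a log2 ratio of 1.04). Its regions, at 7397 bp and at 168357 bp near the end of the gene, had IL-2 heights of 16 and 13, in an order the table does not give. The IL-2 mean of Bach2 was above 22.4% of listed genes. RefSeq gives Bach2 a start 179 kb further upstream than the deposited table, so regions in that stretch were not counted for it.

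By place, 32 of the 35 regions of the 9 genes lay within the gene, 1 upstream and 2 downstream. Over all 8337 pairs of a gene and an IL-2 region in the table, 50% lay within the gene, 29.7% upstream and 20.3% downstream. Foxp1 weighs on this count, and without it 14 of 17 lay within the gene. A region within 1 kb of the deposited start was found at 5 of the 9 genes (Foxp1, Foxo1, Klf2, Satb1 and S1pr1), against 36.6% of all listed genes. For Foxp1, RefSeq's span of the gene begins 87.4 kb further upstream than the deposited start. Counted by region instead, this near-start share was lower for the 9 genes, 14.3% (5 of 35) against 22% of all pairs. Leaving out Foxp1 raised it to 23.5% (4 of 17). Placed over 10 kb into the gene were 60% (35.3% when Foxp1 is left out), against 27.2% of all pairs. More than 1 region was found at 7 of the 9, against 33.3% of listed genes. Of the 9 genes 6 were between 81.8 and 510 kb long, and Tcf7, S1pr1 and Klf2 were shorter, while the median length of listed genes was 17.8 kb for those with 1 region and 51.4 kb for those with 4 or more.

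Relatives of these genes were looked up as well. Of 29 paralogs (other genes of the same families), 12 (41.4%) were in the table, against 19.1% of protein-coding genes in RefSeq. The 9 genes and the lists of related genes were chosen with earlier results known, so their listed shares are not compared as a result. Of the 12 listed paralogs, 10 (83.3%) had a ratio of 2 or more, against 83.8% of all listed genes. Their median log2 ratio was 1.39, against 1.42 over all listed genes, so both values lay near those of the table as a whole. Foxp3, the factor of regulatory T cells, had 4 in control and 110 with IL-2 at a region -8764 bp from its start that was also assigned to Ppp1r3f and 4930524L23Rik. S1pr4, a second sphingosine 1-phosphate receptor of lymphocytes, had 8 and 80 at a region shared with Gna15. Bach1 had 6 and 48 and Klf7 had 6 and 28. Foxp3, S1pr4 and Bach1 had 1 region each, and their IL-2 heights were above the mean of every one of the 9 genes. The lowest ratios among paralogs were those of Klf10 (5 and 13, log2 ratio 0.85) and Foxp4 (4 and 12, log2 ratio 0.92). Tcf7l1, Tcf7l2, Foxo4 and Foxo6 were among the 17 paralogs without a listed region.

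Of 40 other genes of quiescence and the naive state, 29 (72.5%) were in the table, against 19.1% of protein-coding genes in RefSeq. At a ratio of 2 or more were 27 of them (93.1%), against 83.8% of all listed genes. Their median log2 ratio was 1.48, against 1.42 over all listed genes. This list was also chosen with earlier results known, so neither share is compared as a result. The highest peaks were at Il6ra, a subunit of the IL-6 receptor (5.33 in control and 47 with IL-2 over 6 regions, highest peak 141), Slfn2, a quiescence factor of T cells (8 and 64, highest peak 116), Ets1 (5.9 and 36.1 over 10 regions, highest peak 101) and Il7r (4.5 and 53, highest peak 94). The lowest ratios were at Cdkn2d, an inhibitor of cell cycle kinases (7 and 12, log2 ratio 0.50), and Ccr7, a homing receptor of naive cells (5 and 13, log2 ratio 0.85). Targets of FOXO1 thus differed among themselves, with Il7r far above Ccr7.

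**Figure D4:**
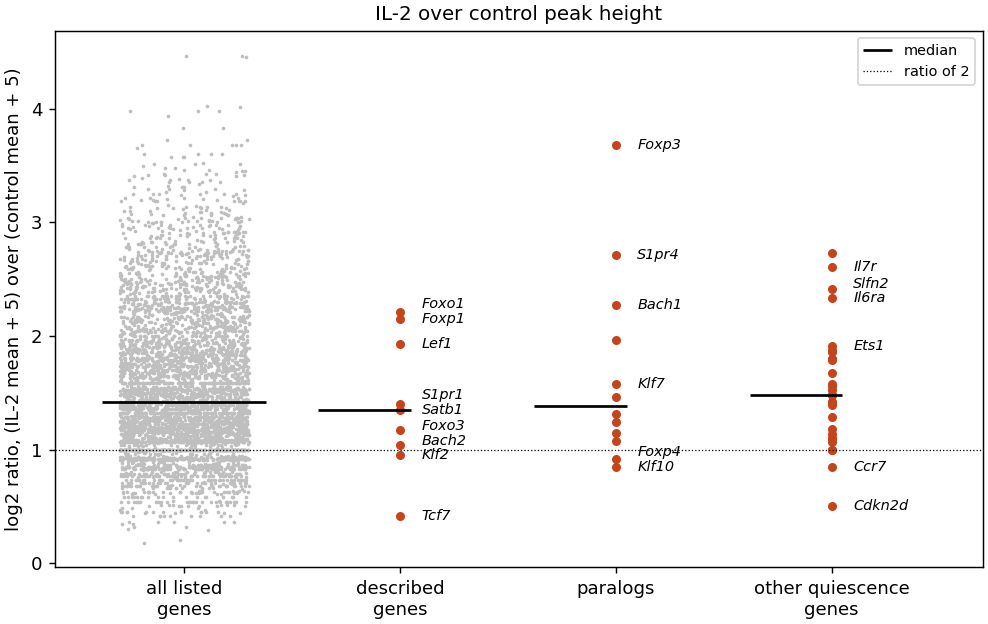
Log2 ratio of IL-2 over control mean height with 5 added to each (y axis) for all listed genes, the 9 genes, their paralogs and other quiescence genes (x axis). Each point is a gene, bars are medians and the dotted line marks a ratio of 2. The medians lie close together (1.42, 1.35, 1.39 and 1.48), and Tcf7 lies lowest of the 9 genes at 0.42. After scaling to equal medians, S1pr1, Bach2, Klf2 and Tcf7 fall below 0.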

How the data were processed

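STAT5 ChIP-seq was measured in 1 control and 1 IL-2 library. Active Motif performed the assay, per the labels' protocols. The heights in the table deposited by the authors are signal values of at least 0, averaged over each gene's regions. BWA and the build mm10 come from the submitters' processing notes. How peaks were called, how the libraries were scaled and their depth were not given in the sources used here, so counting error is unknown. Other deposited columns (interval and region counts, presence) are described by the file headers. Genes were matched to RefSeq by identifier (9 of 9). Positions were computed from gene start and distance, and 5714 of 5714 intervals had 1 position from every gene. Heights of single regions were solved from means and highest peaks, with the highest peak taken as the top IL-2 height among the same regions. Simulated data checked the arithmetic of this step and not that assumption. Ratios used a pseudocount of 5, which understates folds of low heights. Alternatives were pseudocounts of 1 and 10, equal medians, the highest peak in place of the IL-2 mean, other ratios and distances, and a filter on low heights. Columns of other samples numbered 0. Python 3.11.15 and pandas 2.3.3 were used. The members and lists were chosen with earlier results of these data known. Named were all 9 members, genes sharing their regions, the genes most like Foxp1 and Tcf7, and from each list the 4 highest peaks and 2 lowest ratios.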

Additional observations from a re-analysis of the deposited data

How the results depend on the processing

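No paired analysis was possible because with 1 library on each side nothing could be paired. Of the 9 genes, 7 had a ratio of 2 or more, and this count became 0 after scaling to equal medians, 2 with a ratio of at least 4 and 4 among genes of higher signal, while the 4133 among all listed genes became 586, 1141 and 2426. With pseudocounts of 1 and 10 the count was 8 and 5 of the 9 genes, and 4769 and 2784 of all listed genes. Both the highest peak and a ratio of at least 1.5 gave 8 of the 9 genes, against 4219 and 4848 of all listed genes. Higher signal means a mean of both heights at or above the median of listed genes, a setting that holds 5 of the 9 genes, so it counts fewer by construction. After scaling, the log2 ratios of Tcf7 (-0.96), Klf2 (-0.57), Bach2 (-0.24) and S1pr1 (-0.04) changed sign. For the 9 genes the median, 1.35 on the log2 scale, moved to 1.84 (pseudocount 1), 1.00 (pseudocount 10), 0.04 (scaling) and 1.54 (highest peak). The difference of Foxp1 from Tcf7 (1.74) became 2.13, 1.43, 1.65 and 3.27 in the same settings. That from Klf2 (1.20) became 1.5, 0.99, 1.25 and 2.21, and neither changed sign. These contrasts were chosen with the genes' values in the same libraries known, so an unchanged sign adds no support. Regions within 1 kb of a start were 5, and 10 within 5 kb. Scaling to equal medians removes any overall difference by construction. Depth is unknown, so it cannot be said how large a counting error the lowest heights carry.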

Other observations

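The IL-2 intervals are numbered upward along each chromosome, and 5703 of the 7294 numbers occur in the rows used here. The other 1591 can be placed only between their neighbours, and their heights are not analysed here. This was examined after the data were seen. Within each of the 7 genes with more than 1 region, from its outermost region to the other, 0 numbers were missing. Tcf7 and Foxo3, with 1 region each, had no such stretch. Between the outermost region of a gene and the next listed region outside it, numbers were missing for 8 of the 9 genes, and where the outermost region lies inside the gene such a stretch takes in part of it. The stretch beyond the upstream region of S1pr1 (169 kb) lacked 9 numbers and that on its other side (6258 kb) lacked 4. The stretch after the last Foxo1 region (632 kb, which includes the rest of the gene) lacked 8, and that before the first Bach2 region (173 kb, which includes the deposited start) lacked 7. The stretch before the first Klf2 region (79 kb) lacked 4, as did that before the first Lef1 region (1309 kb, which includes the start of Lef1). For Tcf7, 3 were missing on the side of its start (1021 kb) and 1 on the other (312 kb), and both stretches include part of the gene. For Foxp1, 1 was missing on each side, and for Satb1 1 on the side of its start. Of 5682 stretches between neighbouring listed regions, 12.1% had any missing number and 0.704% had 7 or more. These shares and the 8 of 9 genes take no account of length. Per 100 kb, 0.0625 numbers were missing over all stretches. Where any were missing beside the 9 genes, the rate ran from 0.0597 (beyond the last Foxp1 region) to 5.31 (upstream of S1pr1). The 6258 kb stretch of S1pr1 had 0.0639. Foxo3 had 0 on both sides.

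The 7 numbers before the first Bach2 region lie between chr4 positions 32252213 and 32424832, which is inside the longer span that RefSeq gives the gene (chr4:32238413-32586109, 348 kb). That span also holds the 4 regions of D130062J21Rik, 165 to 178 kb before the deposited Bach2 start, with mean heights of 5.25 in control and 19 with IL-2 and a highest peak of 38. The first of these 4 regions lay 1363 bp after the RefSeq start of Bach2. By the RefSeq span Bach2 would hold 13 numbered intervals, 6 of them with heights in the table, in place of the 2 assigned to it. The place of Bach2 among genes with few regions therefore depends on which gene model is used. Foxp1 is also longer in RefSeq, by 87.4 kb at its start, and 1 number was missing in the 230 kb on that side.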
